A study of Mus musculus with 6 samples.

Results

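The genes described here were 10 transcription factors of the cardiac neural crest, the outflow tract, and the aortic arch arteries: Tbx1, Tbx2, Tbx3, Tbx20, Hand1, Hand2, Foxc1, Foxc2, Pax3, and Isl1. They were chosen by gene symbol, and all 10 were found among the 23997 genes of the table. Bulk RNA-Seq was performed on the ductus arteriosus (DA), the fetal artery that joins the pulmonary artery to the aorta, of C57BL/6 mouse embryos at E17.5. The WT group held 3 libraries of wild-type embryos, and the KO group held 3 libraries labelled Prdm6f/f; SM22-Cre. In the KO genotype, floxed Prdm6 is exposed to a Cre transgene driven by SM22 (Tagln), a gene of smooth muscle cells. DA cells in which that promoter was never active, in the cell or its precursors, keep the gene. The labels give the wild-type embryos neither a floxed allele nor a Cre. No treatment was given in either group. The labels name no separate animal, litter, or pool for a library, so the p-values measure only the spread between these libraries. The comparison asks whether transcripts of these factors differ in the DA late in gestation when Prdm6, a histone methyltransferase of the PRDM family of repressors, is targeted in smooth muscle.

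The smooth muscle of the DA descends largely from cardiac neural crest cells, which leave the dorsal neural tube, pass through the pharyngeal arches, and settle around the arch arteries and in the outflow tract. The 10 factors act along this route. Pax3 marks the dorsal neural tube and early neural crest, Foxc1 and Foxc2 are forkhead factors of arch and vascular mesenchyme and of endothelium, and Hand1 and Hand2 are basic helix-loop-helix factors that bind DNA as dimers with E proteins and are restrained by Id proteins. Tbx1 is a T-box activator of the pharyngeal arches and of the progenitors that lengthen the outflow tract, Tbx2 and Tbx3 are T-box repressors, Tbx20 is a T-box factor of heart muscle and endocardium, and Isl1 is a LIM homeodomain factor of second heart field progenitors and of autonomic and motor neurons. Most of these genes are at their height in much younger embryos.

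Promoter sequence from RefSeq on GRCm38.p6 was matched for 5 of the 10 genes, Foxc1, Hand2, Isl1, Tbx1, and Tbx20, with 6 windows because Tbx1 has 2 starts. The 250 bases before the start are shown for Foxc1, which had the highest mean level and the narrowest range over the libraries of these 5, and for Tbx20 and Hand2, which varied most among those of the 5 detected in every library. Capitals mark, on either strand, the E-box bound by basic helix-loop-helix dimers (CANNTG), a T-box core (AGGTGT), a forkhead core (TGTTTA), the site of GATA factors (written TGATAA, and also the variant AGATAA), and the CCAAT box.
Foxc1, chr13:31806396-31806645, plus strand: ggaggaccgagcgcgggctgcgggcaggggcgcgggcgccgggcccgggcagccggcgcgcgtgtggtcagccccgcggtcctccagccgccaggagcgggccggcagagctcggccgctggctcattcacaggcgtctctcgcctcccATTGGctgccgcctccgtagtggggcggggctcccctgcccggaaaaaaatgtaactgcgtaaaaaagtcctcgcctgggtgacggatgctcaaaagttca
Hand2, chr8:57320733-57320982, plus strand: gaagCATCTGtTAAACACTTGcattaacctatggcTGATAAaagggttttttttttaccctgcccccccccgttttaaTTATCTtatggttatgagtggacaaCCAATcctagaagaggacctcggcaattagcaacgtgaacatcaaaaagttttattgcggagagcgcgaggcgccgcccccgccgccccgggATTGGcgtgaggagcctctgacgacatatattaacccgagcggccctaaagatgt
Tbx20, chr9:24774304-24774553, minus strand: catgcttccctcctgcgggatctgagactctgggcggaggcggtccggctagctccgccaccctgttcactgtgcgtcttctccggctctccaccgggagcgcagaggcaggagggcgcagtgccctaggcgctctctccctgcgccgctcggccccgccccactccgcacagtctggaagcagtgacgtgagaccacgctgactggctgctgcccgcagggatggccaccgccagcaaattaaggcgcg
The last bases of the Foxc1 window lie inside the gene as GENCODE draws it. The Foxc1 window held 1 CCAAT box and the Tbx20 window held none of the motifs. The Hand2 window held 2 E-boxes, 1 forkhead core, 2 GATA sites, and 2 CCAAT boxes, and its forkhead core shares bases with the E-box beside it, so the pair appears as one run of capitals. Among all 32851 promoter windows of that length, 66.2% held an E-box, 11.8% the T-box core, 12.0% the forkhead core, 16.6% a GATA site, and 33.9% a CCAAT box. GC content was 70.8% for Foxc1, 68.8% for Tbx20, and 49.2% for Hand2, beside a median of 52.4% over all windows. A match in these letters is a description, and no binding was measured.

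Before the levels were read, the libraries were set against their labels. Prdm6 itself stood at 41.7, 48.4, and 19.8 FPKM in the WT libraries and at 48.6, 27.1, and 15.4 FPKM in the KO libraries, and the groups overlapped. A gene-level FPKM does not resolve the floxed exon, and cells outside the Cre domain also add transcripts, so Prdm6 checks neither group, and every direction below rests on the labels. One library, labelled KO0, held both Xist, at 81.0 FPKM, and the Y-linked Ddx3y, at 26.4 FPKM, whereas the other libraries had mainly one or the other. The differences of the 7 tested genes, the counts of overlap, the paralog gaps, and the list medians were therefore also computed without KO0. Contractile smooth muscle markers were abundant in all 6 libraries, with a summed FPKM from 2505 to 5800 in WT and from 937 to 2434 in KO over 10 of 10 markers, and the part of this gap in the values below was not tested. Heart muscle markers stood out in 2 libraries, WT1 and KO2, where 10 genes summed to 1314 and 1443 FPKM, against 53.8 to 372 FPKM in the other 4. Genes listed at 0 numbered from 8338 in KO2 to 11886 in WT2. The values were not counts, but low FPKM values of genes with 1 transcript rose in steps. These steps put 1 fragment at 0.0699 to 0.0892 for FPKM multiplied by transcript length in kilobases. The product was lowest in KO1 and highest in WT2, so the libraries differed little in depth. Genes worth 3 to 14 fragments made up 8.19% of the detected genes of this kind in WT1 and only 1.30% in WT2. WT2 thus had both the most genes at 0 and the fewest genes in this band. At 1 fragment it had the most, 56 genes of this kind against 34 to 40 in the other libraries. Tbx1, Tbx3, and Pax3 are among the genes listed at 0 in WT2.

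FPKM is per transcript length, so levels were compared between the 10 genes within a library. Foxc1 was the highest of the 10 in 4 libraries and Tbx20 was the highest in the other 2, WT1 and KO2. In the order of mean FPKM over the 6 libraries, Foxc1 (35.2) came before Foxc2 (17.1), Tbx20 (15.4), Hand2 (11.1), Tbx2 (8.33), Isl1 (4.22), Tbx1 (1.72), Tbx3 (0.841), Pax3 (0.552), and Hand1 (0.252). The step from Foxc1 to Foxc2 was the one step that held in 6 of 6 libraries. Tbx2 lay above Isl1 and Isl1 above Tbx1 in 5 of 6 libraries each, Foxc2 above Tbx20, Tbx20 above Hand2, Tbx1 above Tbx3, and Pax3 above Hand1 in 4 each, Hand2 above Tbx2 in 3, and Tbx3 above Pax3 in only 2, so most neighbours in this order did not differ beyond their spread. Foxc1 lay between the 86.5th and the 96.4th percentile of all 23997 genes of the table, and Foxc2 between the 76.1st and the 90.1st. The other end of the order was at the edge of detection. Tbx1 was listed at 0 in 1 library, Tbx3 and Pax3 in 2 libraries each, and Hand1 in 4.

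**Figure D1:**
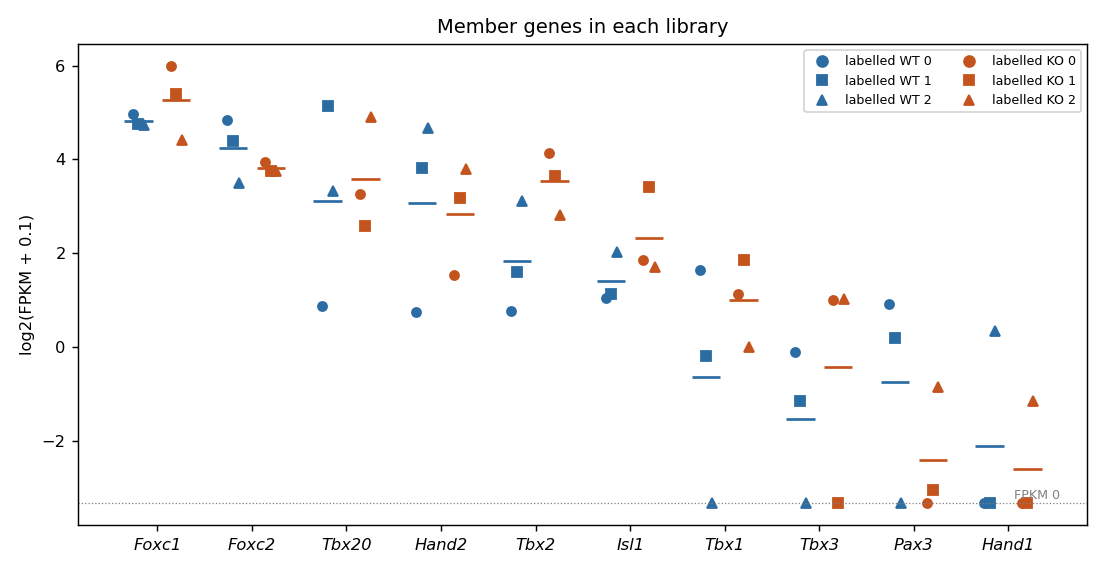
Each point is 1 library, with its log2(FPKM + 0.1) on the vertical axis, and the 10 genes are ordered by mean FPKM along the horizontal axis, blue for the libraries labelled WT and orange for those labelled KO. Short lines are group means on this scale and the dotted line is an FPKM of 0. The blue and orange points overlap for all 10 genes, and Tbx20, Hand2, and Tbx2 spread more widely within a group than Foxc1 and Foxc2 do.

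Of the 10 genes, 7 had a mean FPKM of at least 1 and were tested among 12955 genes with limma on log2(FPKM + 0.1). None passed an adjusted p of 0.05 after Benjamini-Hochberg correction, with adjusted p-values from 0.588 to 0.953, and 0.00772% of all tested genes did. An unadjusted p under 0.05 was reached by 1 of the 7, Tbx2, against 8.28% of all tested genes. Tbx2 no longer reached it with a replicate block, without the variance trend, or without WT0, WT1, KO0, or KO1. The same held without both WT1 and KO2. In none of the 10 genes did the 3 WT and 3 KO values separate without overlap, whereas 16.1% of all tested genes separated, 8.21% with KO higher and 7.84% with KO lower. The median log2 difference, KO minus WT, was 0.47 over the 7 tested genes and 0.072 over all tested genes, with 5 of the 7 above 0 and 2 below. These genes were also measured less precisely than most. Their median standard error (SE) was 0.65 on the log2 scale, against 0.41 over all tested genes. The exact permutation test of 3 against 3 libraries cannot give a p below 0.1.

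**Figure D2:**
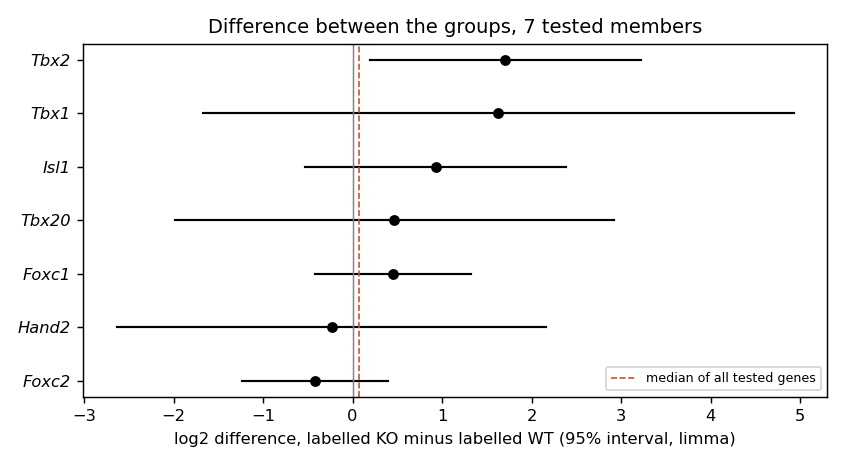
The horizontal axis is the log2 difference, KO minus WT, from limma with its 95% interval, for the 7 tested genes ordered by difference. The interval of Tbx2, 0.20 to 3.22, lies above 0 before correction over all tested genes and under the main settings, and the other 6 intervals include 0. The dashed line is the median of all tested genes, 0.072.

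Foxc1 (chr13:31806633-31812476, plus strand, GRCm38), a forkhead factor needed for the arch arteries and for the meninges and eye, was present at 31.3, 26.7, and 26.5 FPKM in WT0, WT1, and WT2 and at 63.7, 42.0, and 21.2 FPKM in KO0, KO1, and KO2. The WT libraries sat close together, 2 KO libraries lay above all of them, and KO2 lay below all of them. The means were 28.2 ± 2.68 and 42.3 ± 21.3 FPKM (SD, n = 3 each). The log2 difference was 0.45 ± 0.37 (SE; 95% interval -0.42 to 1.32), with a limma adjusted p of 0.728 after Benjamini-Hochberg correction and an exact permutation p of 0.4. Without KO0, the library with transcripts of both sexes, the difference was 0.087. Without KO2 the groups did not overlap.

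Foxc2 (chr8:121116171-121118895, plus strand), the paralog that is also a regulator of lymphatic vessels and valves, was at 28.4, 20.8, and 11.1 FPKM in the WT libraries and at 15.2, 13.5, and 13.4 FPKM in the KO libraries. Here the KO libraries were close together and lay inside the range set by WT. The means were 20.1 ± 8.66 and 14.02 ± 1.03 FPKM (SD, n = 3 each). The log2 difference was -0.42 ± 0.35 (SE; 95% interval -1.23 to 0.40; limma adjusted p of 0.728 with Benjamini-Hochberg correction). Markers of lymphatic endothelium, a cell type that uses Foxc2, summed to 127, 141, and 243 FPKM in WT and to 61.6, 311, and 253 FPKM in KO over 9 of 9 genes. Itga9 was the largest single part of the sum in WT0, WT1, and KO0. It stood at 91.9, 54.4, and 46.4 FPKM in WT and at 30.2, 33.1, and 22.3 FPKM in KO. Of the 9 markers, 7 had a log2 difference above 0 and 2, Itga9 included, below. The part of lymphatic endothelium in the Foxc2 values was not tested. Foxc2 overlaps the annotated gene Gm20388 on the same strand, and how the authors' counting shared reads between overlapping genes was not given in the sources used here.

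Tbx2 (chr11:85832551-85841948, plus strand), a T-box repressor that restrains chamber genes in the outflow tract and atrioventricular canal and also acts in lung mesenchyme, had the largest difference of the tested genes under the main settings, though Tbx1 exceeded it with a pseudocount of 0.01 and without WT0, WT1, KO0, KO2, or both WT1 and KO2. It stood at 1.59, 2.95, and 8.53 FPKM in the WT libraries and at 17.54, 12.4, and 6.94 FPKM in the KO libraries. KO0 and KO1 lay above every WT library, while KO2 lay below WT2, so the groups overlapped by that 1 pair. The means were 4.36 ± 3.67 and 12.3 ± 5.30 FPKM (SD, n = 3 each). The log2 difference was 1.71 ± 0.65 (SE; 95% interval 0.20 to 3.22), with an adjusted p of 0.588 in limma after Benjamini-Hochberg correction and an exact permutation p of 0.2. The difference was 1.40 without KO0 and 1.96 with WT1 and KO2 left out, and ranged from 1.17 to 2.35 when each library was left out. The implied fragments behind these values ran from 71.8 to 783. Whether these fragments came from independent molecules is not known, so the counting error was not measured. Lung and airway epithelial markers, 10 genes of a tissue whose mesenchyme uses Tbx2, summed to 36.8, 18.1, and 55.0 FPKM in WT and to 56.4, 43.1, and 22.5 FPKM in KO. The groups' sums overlapped, but Krt18 was the largest single part of the sum in every library except KO2. Krt18 stood at 30.8, 11.5, and 47.0 FPKM in WT and at 24.3, 23.9, and 8.30 FPKM in KO, so the sums mostly follow this gene. KO0 and KO1 were the libraries highest in Tbx2. Nkx2-1, the surfactant gene Sftpc, Foxa2, and Scgb1a1 were highest in KO0, and Scgb1a1 was at 17.3 FPKM there and 0 elsewhere. Sftpb and Krt8 were highest in KO1. The epithelial genes Epcam and Cdh1 and the airway factor Sox2 were highest in KO2, the KO library lowest in Tbx2. Krt18 was highest in WT2. The markers thus did not order the libraries in one way, and the part of lung tissue in the Tbx2 values was not tested.

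Tbx20 (chr9:24718138-24774303, minus strand), a T-box factor of heart muscle and endocardium, followed the summed heart muscle markers more than the labels. It was at 1.74, 35.2, and 9.97 FPKM in WT and at 9.49, 5.89, and 30.1 FPKM in KO, a range of 4.26 on the log2 scale across the 6 libraries. The summed heart muscle markers in the same libraries were 53.8, 1314, and 372 FPKM in WT and 120, 114, and 1443 FPKM in KO. The highest Tbx20 values were thus in WT1 and KO2, the lowest in WT0, and the ranks of Tbx20 and of the marker sum differed only by an exchange of WT1 and KO2. Of the 10 markers, 7 had their 2 highest values in WT1 and KO2. The other 3 were Tnnt2, a troponin, at 142 FPKM in WT2 and 140 FPKM in KO2, Myh7, a slow myosin, highest in WT2 at 43.5 FPKM, and Nppa, the atrial natriuretic peptide, listed at 0 in 5 of 6 libraries. The log2 difference of Tbx20 was 0.47 ± 1.05 (SE; 95% interval -1.98 to 2.92; limma adjusted p of 0.895 with Benjamini-Hochberg correction), and it was 0.82 without the 2 heart-rich libraries, -0.65 without WT0, and -0.20 without KO2. In bulk tissue, fewer cells of a type and less RNA per cell cannot be told apart. The part of heart tissue in the Tbx20 values was not tested.

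Tbx1 and Tbx3 were low. Tbx1 (chr16:18580979-18590671, minus strand) was at 3.02, 0.774, and 0 FPKM in WT and at 2.11, 3.54, and 0.897 FPKM in KO. WT1 and WT2 lay below every KO library, and WT0 made the groups overlap. The difference was 1.63 ± 1.42 on the log2 scale (SE; 95% interval -1.68 to 4.93; adjusted p of 0.735 in limma with Benjamini-Hochberg correction). Its size was not stable, at 2.76 without WT0, where the groups did not overlap, 0.28 without WT2, 0.64 with a pseudocount of 1, 2.72 with one of 0.01, and 0.48 after quantile normalization. Tbx3 (chr5:119670669-119684724, plus strand), which overlaps Tbx3os1 on the opposite strand so that reads of the pair may be mixed, was at 0.829, 0.350, and 0 FPKM in WT and at 1.92, 0, and 1.94 FPKM in KO. The values of KO0 and KO2 lay above all WT libraries and KO1 was listed at 0, and the exact permutation p was 0.6. Tbx3 fell below the filter on mean FPKM and had no place in the main test.

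Hand2 (chr8:57320983-57324633, plus strand), which the arch mesenchyme, the right ventricle, and sympathetic neurons need, varied as widely as Tbx20. It was at 1.57, 13.96, and 25.6 FPKM in WT and at 2.82, 8.97, and 13.9 FPKM in KO. The lowest value of each group was in its library numbered 0, and the KO values all lay inside the WT range. The means were 13.7 ± 12.0 and 8.55 ± 5.53 FPKM (SD, n = 3 each), and the log2 difference was -0.24 ± 1.03 (SE; 95% interval -2.63 to 2.16; adjusted p of 0.953 in limma with Benjamini-Hochberg correction). Its sign changed when WT1, WT2, or KO0 was left out. Hand2 overlaps Hand2os1 on the opposite strand, and the sources used here do not say whether strand was used in counting, so reads of the pair may be mixed. Hand1 (chr11:57828705-57832818, minus strand), its paralog of the left ventricle and outflow tract, was listed at 0 in 4 libraries and stood at 1.16 FPKM in WT2 and 0.353 FPKM in KO2, with an exact permutation p of 1.

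Isl1 (chr13:116298281-116309689, minus strand) was at 1.98, 2.09, and 3.96 FPKM in WT and at 3.54, 10.6, and 3.17 FPKM in KO. KO1 stood above the other 5 libraries, and the other KO values lay within the WT range. The means were 2.68 ± 1.11 and 5.77 ± 4.19 FPKM (SD, n = 3 each). The log2 difference was 0.93 ± 0.63 (SE; 95% interval -0.53 to 2.39; adjusted p of 0.689 in limma with Benjamini-Hochberg correction). Isl1 is also a gene of sympathetic neurons, and the summed neuron markers, 10 genes, were 13.7, 8.05, and 23.1 FPKM in WT and 42.2, 49.6, and 61.3 FPKM in KO. The neuron sums did not overlap between the groups, KO2 had the highest of them with an Isl1 level inside the WT range, and Th, the first enzyme of catecholamine synthesis, was listed at 0 in 4 libraries. The part of neurons in the Isl1 values was not tested.

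Pax3 (chr1:78101267-78197134, minus strand), the gene of the dorsal neural tube and premigratory crest, was at 1.80, 1.04, and 0 FPKM in WT and at 0, 0.0205, and 0.451 FPKM in KO. The 2 highest values were in WT libraries, but WT2 was listed at 0, and the exact permutation p was 0.4. The KO1 value is worth about 1 fragment, from 0.903 to 1.13 depending on the transcript. Pax3 was not in the main test. In a fit without the filter its log2 difference was -1.67, with an adjusted p of 0.752 in limma with Benjamini-Hochberg correction.

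Paralogs were also compared within each library as differences in log2(FPKM + 0.1), which leaves the scaling between libraries nearly without effect where both genes lie far above the pseudocount, as Foxc1 and Foxc2 do. Foxc1 exceeded Foxc2 in 6 of 6 libraries, by 0.14, 0.36, and 1.24 in WT and by 2.06, 1.63, and 0.66 in KO. KO0 and KO1 had a wider gap than any WT library and KO2 fell between the WT values. The mean gap was wider in KO by 0.87 ± 0.54 (SE), with an exact permutation p of 0.2, or 0.6 adjusted over the 3 pairs. Hand2 exceeded Hand1 in 6 of 6 libraries, and Tbx2 exceeded Tbx3 in 6 of 6. Hand1 was listed at 0 in 4 libraries and Tbx3 in 2, where the gap is that of the other gene to the pseudocount, so no group difference was read from these pairs.

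**Figure D3:**
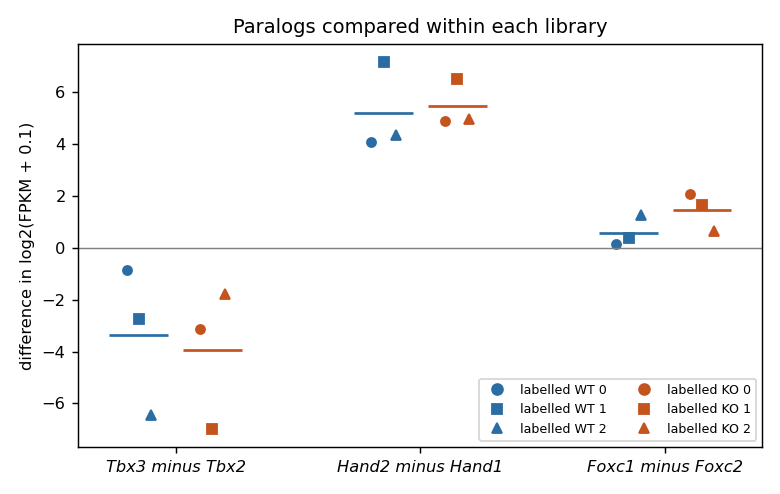
Each point is the difference in log2(FPKM + 0.1) between paralogs in 1 library, blue for WT and orange for KO, with the group means as short lines. All 6 points lie below 0 for Tbx3 minus Tbx2 and above 0 for Hand2 minus Hand1 and Foxc1 minus Foxc2, and the groups overlap in each pair. Where Tbx3 or Hand1 was listed at 0, the point shows the other gene against the pseudocount.

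The profiles of the 7 tested genes over the 6 libraries were compared with those of all other tested genes, by the root mean square distance of log2 values centred on each gene's mean. With 6 libraries and 12954 other genes some close profiles will arise whatever the genes do, so the closest are given as a description. Close to Foxc1 was Angpt2, a vascular growth factor that forkhead factors of the Foxc group can regulate, at a distance of 0.12. Angpt2 was at 69.8, 63.0, and 69.5 FPKM in WT and at 150.3, 84.1, and 52.7 FPKM in KO, between 2.001 and 2.622 times the Foxc1 value in each library. Close to Tbx2 were Med18 at 0.26 and Fgf10, a growth factor of second heart field and lung mesenchyme, at 0.31. Fgf10 was at 3.47, 3.74, and 15.4 FPKM in WT and at 32.3, 14.1, and 10.3 FPKM in KO, so its lowest values were in WT0 and WT1 and its highest in KO0, as for Tbx2.

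The closest profiles to Tbx20 were those of 2 heart muscle genes, Fabp3, a fatty acid binding protein, at a distance of 0.34 and Actc1, cardiac actin, at 0.42. Actc1 was at 11.4, 344, and 93.3 FPKM in WT and at 71.6, 42.0, and 460 FPKM in KO. Its values in WT1 and KO2 exceeded those of the other 4 libraries, which is the order seen for the heart muscle sum, and neither gene was in that sum. The remaining closest genes were Dysf (0.10) and Schip1 (0.11) for Foxc2, Lrrc51 (0.33) and C1qb (0.37) for Hand2, Glis3 (0.23) and Clec9a (0.31) for Isl1, and D930015M05Rik (0.27) and Alkbh4 (0.28) for Tbx1.

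**Figure D4:**
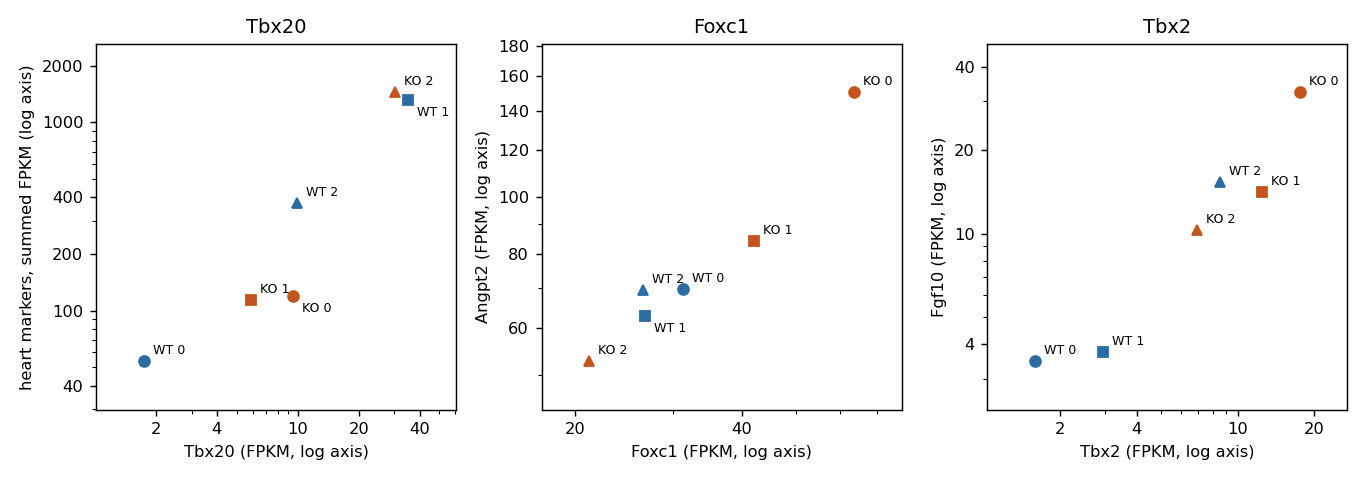
Each point is 1 library on log axes, with the level of Tbx20, Foxc1, or Tbx2 in FPKM along the horizontal axis and, on the vertical axis, the summed FPKM of 10 heart muscle markers, Angpt2, or Fgf10. WT1 and KO2 stand together at the top for Tbx20, KO0 stands at the top for Foxc1 and Tbx2, and Angpt2 and Fgf10 were picked for the likeness shown.

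Genes around the 10 factors were read from lists, and no gene of any list passed an adjusted p of 0.05. Among 34 other transcription factors of cardiac crest and outflow tract, 30 were tested, 4 separated without overlap with KO higher and 5 with KO lower, beside 8.21% and 7.84% of all tested genes, and the median log2 difference was 0.10. The lower ones included Sox9, a crest and cartilage factor, at 9.97, 7.36, and 4.25 FPKM in WT and 1.32, 2.63, and 2.07 FPKM in KO (log2 difference -1.76 ± 0.54, SE; adjusted p of 0.539 in limma with Benjamini-Hochberg correction). In this list Tbx5 was also highest in the 2 heart-rich libraries, at 10.9 and 13.5 FPKM in WT1 and KO2 and 0.537 to 3.67 FPKM in the other 4, but its lowest value was in WT2, which had the next highest heart muscle sum.

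Of 13 other T-box genes, 4 were tested, none separated, and their median log2 difference was 0.18. Beside Tbx5, these were Tbx18, at 12.8 to 24.6 FPKM over the libraries, Mga, at 26.8 to 33.4 FPKM, and Tbx15, at 0.336 to 8.94 FPKM. Of 8 other Pax genes, 1 was tested, Pax9, which was listed at 0 in WT0 and WT1 and stood at 4.41 FPKM in WT2. Of 11 other LIM homeobox genes, 3 were tested, among them Lhx5, at 0.173, 0.0305, and 0.0984 FPKM in WT and 6.12, 0.897, and 1.01 FPKM in KO. Lhx5 passed the filter only through its KO values, so its separation is no support for a difference. With 3 genes at such levels, the list's median of 1.96 moved from 0.16 to 3.07 with the filter and the pseudocount.

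The 9 partners and inhibitors of Hand factors were all tested, and their median log2 difference was -0.29. Id2, which sequesters E proteins, was at 155, 107, and 88.6 FPKM in WT and at 79.1, 51.4, and 65.8 FPKM in KO, and Tcf12, an E protein, was at 35.5, 34.0, and 22.7 FPKM in WT and at 48.4, 43.7, and 46.3 FPKM in KO. Both separated without overlap in opposite directions, 1 of 9 each way, beside 8.21% of all tested genes with KO higher and 7.84% with KO lower. Their limma adjusted p-values were 0.540 for Id2 and 0.561 for Tcf12 by Benjamini-Hochberg correction. Of the 7 LIM cofactors of Isl1, 6 were tested, none separated, and the median was -0.41.

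Of 32 signals and receptors of the outflow tract and arch arteries, 30 were tested, 2 separated with KO higher and 4 with KO lower, beside 8.21% and 7.84% of all tested genes, and the median log2 difference was 0.18. Fgf8 and Shh, ligands of the early pharynx upstream or downstream of Tbx1, were listed at 0 in all 6 libraries. Tgfb2, a ligand for smooth muscle differentiation, was at 55.7, 60.7, and 51.5 FPKM in WT and at 44.9, 26.3, and 24.0 FPKM in KO, and Fgfr2 was at 44.5, 21.8, and 25.1 FPKM in WT and at 18.04, 13.5, and 10.1 FPKM in KO. Their limma adjusted p-values were 0.535 and 0.540 with Benjamini-Hochberg correction.

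Of 25 genes named as targets of these factors in other settings, Hand2 among them, 19 were tested, 5 separated with KO higher and 1 with KO lower, beside the same shares of all tested genes, 8.21% and 7.84%, and the median log2 difference was 0.47. Cldn5, a tight junction gene of endothelium, was at 9.91, 11.6, and 14.6 FPKM in WT and at 27.9, 48.2, and 39.0 FPKM in KO, a log2 difference of 1.64 ± 0.27 (SE) with an adjusted p of 0.298 in limma with Benjamini-Hochberg correction. Every KO value exceeded every WT value. The 10 endothelial markers, Cldn5 included, summed to 404, 345, and 522 FPKM in WT and to 453, 665, and 585 FPKM in KO, and the sums overlapped. Schwann cell markers also summed higher in the KO libraries, at 49.5, 112.6, and 180.0 FPKM against 16.9, 20.6, and 40.3 FPKM in WT. The part of endothelium and Schwann cells in these target genes was not tested.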

How the data were processed

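Bulk RNA-Seq libraries were grouped by their titles as 3 WT and 3 KO, with 0 columns left without a sample. The authors trimmed the reads and mapped them with TopHat2 on mm10. Their deposited FPKM values, 1 per gene and library, came from Cufflinks and Cuffdiff. Versions, annotation, and use of strand were not given in the sources used here. Cuffdiff could not be rerun without alignments. FPKM values are not counts, so limma 3.58.1 in R 4.3.3 was fitted to log2(FPKM + 0.1) of every gene whose FPKM averaged 1 or more (lmFit, eBayes with trend, two-sided, Benjamini-Hochberg, threshold 0.05), and the script was tested on simulated data. Fold differences of low genes are understated on this scale. Single genes were also compared by two-sided exact permutation tests in Python 3.11.15. Positions came from GENCODE vM21 on GRCm38 and promoters from RefSeq.

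Genes named are the 10 members, in each list up to 2 non-overlapping genes with the smallest unadjusted p, the 2 nearest profiles of each tested member, and Prdm6, Xist, and Ddx3y as checks. Tbx5, Tbx18, Mga, Tbx15, Pax9, Fgf8, Shh, Th, Tnnt2, Myh7, Nppa, Nkx2-1, Sftpc, Epcam, Cdh1, and Sox2 were named after their values were seen. So were Sftpb, Foxa2, Scgb1a1, Krt8, Krt18, and Itga9. Members and lists were chosen with earlier results of these data known. Alternatives covered the pseudocount, filter, scaling, trend, replicate block, and each library left out. The fit without the 2 heart-rich libraries was chosen after seeing the data. Some genes that this rule names are not reported here.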

Additional observations from a re-analysis of the deposited data

How the results depend on the processing

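No gene of the 10 passed an adjusted p of 0.05 in limma with Benjamini-Hochberg correction under any alternative, with smallest adjusted p-values from 0.498 to 0.871. With the replicate numbers as a replicate block the smallest was 0.588, and no call changed. Deviations of same-numbered libraries correlated at 0.12, -0.076, and -0.0088, and not every library correlated best with its own. With 3 libraries in each group, these correlations cannot tell whether same-numbered libraries share more than a number. When each library was left out in turn, log2 differences ranged from 0.28 to 2.76 for Tbx1, 1.17 to 2.35 for Tbx2, -0.65 to 1.48 for Tbx20, -1.40 to 0.57 for Hand2, 0.087 to 0.88 for Foxc1, -0.79 to -0.12 for Foxc2, and 0.38 to 1.24 for Isl1. Tbx20 turned to -0.65 without WT0 and -0.20 without KO2, and Hand2 to 0.13 without WT1, 0.57 without WT2, and 0.41 without KO0. The count of the 10 genes with non-overlapping groups ranged from 0 to 4, being 2 without WT0 (Tbx1, Hand2), 4 without WT2 (Tbx2, Foxc2, Pax3, Isl1), 1 without KO1 (Tbx3), and 2 without KO2 or without both heart-rich libraries (Tbx2, Foxc1), while 24.0% to 28.9% of all tested genes separated with 1 library left out and 38.0% without both heart-rich libraries. The group difference in the paralog gaps ranged from -2.15 to 0.90 for Tbx3 minus Tbx2 (0.64 without WT0, 0.90 without KO1), from -0.30 to 1.24 for Hand2 minus Hand1 (-0.30 without WT0, -0.16 without WT2, -0.27 without KO1, and -0.058 with a pseudocount of 1), and from 0.57 to 1.27 for Foxc1 minus Foxc2. List medians ranged from -0.070 to 0.33 for the other transcription factors, 0.069 to 0.28 for T-box genes, 1.05 to 2.93 for LIM homeobox genes, -0.47 to -0.071 for Hand partners, -0.54 to -0.091 for LIM cofactors, 0.029 to 0.25 for signals, and 0.35 to 0.63 for targets. The LIM homeobox median was 0.91 with a pseudocount of 1, 3.07 with 0.01, 0.16 without the filter, and 0.93 after quantile normalization, and the median of the Hand partners was 0.0017 without both heart-rich libraries. The Tbx1 difference was 0.64 with a pseudocount of 1, 2.72 with 0.01, and 0.48 after quantile normalization. The unadjusted p of Tbx2 was 0.0517 with the replicate block and 0.0518 without the trend in limma. The cause of these changes was not tested. Lists with fewer than 3 genes at a mean FPKM of at least 5 gave no median there. Implied fragments of Tbx3, Hand1, and Pax3 were at most 118 in a library, which limits what can be said of them.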
